A study of Mus musculus with 3 samples.

Results

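The MHC class I genes followed were taken from a list of names, with no threshold on a measured value: B2m and the heavy-chain genes H2-K1, H2-D1, H2-Q2, H2-Q4, H2-Q6, H2-Q7, H2-T22 and H2-T23. They are 9 of the 32285 genes in the count tables. Single-cell RNA-seq (10x Genomics, 3′ chemistry) was made of sorted splenic follicular T cells of mice at day 14 after immunisation with ovalbumin-carrying liposomes. The sort held T follicular regulatory (Tfr) cells and T follicular helper (Tfh) cells, which the authors' cell tables separate into 2 classes. The knockout, BKO, lacks Siglec-G, an inhibitory receptor, in B cells (1 sample, batch 1), and it was set against wild type, WT (2 samples, replicate 1 in batch 1 and replicate 2 in batch 2). The sources used here do not give strain, age, the number of mice pooled or the way the gene was deleted, nor whether both genotypes carry the same H2 haplotype.

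The WT samples were not separate libraries. Replicate 1 had 5554 cell barcodes, and all of them recurred among the 5721 of replicate 2, and the UMI totals of shared barcodes had a correlation of 0.997. They are called WT run 1 and WT run 2 below and count as 1 library, so that 1 library stood against 1: there is no test, no p-value and no SD, and intervals cover counting error only. Annotated cells numbered 8433 in BKO (2044 Tfr and 6389 Tfh), 5143 in WT run 1 (1416 and 3727) and 5117 in WT run 2 (1449 and 3668), with median depths of 6431, 4584 and 7527 UMIs per cell. Between the WT runs, 10.4% of the shared cells had been put in different classes. Siglecg had 0 or 1 UMI in BKO and 0 to 4 in each WT run per class; since the deletion is in B cells, this does not check the labels. Foxp3, the lineage factor of regulatory T cells, stood at 349 CPM (UMIs scaled to a common library total) in BKO Tfr cells, against 356 and 331 CPM in WT runs 1 and 2. In Tfh cells it had 1.33 CPM in BKO, against 0.801 CPM in WT run 1 and 16.5 CPM (495 UMIs) in WT run 2, so the Tfh class of run 2 held Foxp3 transcripts that the other two did not to that extent.

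MHC class I molecules carry peptides from inside the cell to its surface, where CD8 T cells and natural killer cells read them. Each consists of a polymorphic heavy chain and the shared light chain beta-2 microglobulin, which B2m encodes on a chromosome of its own. H2-K1 and H2-D1 encode the classical heavy chains. The H2-Q and H2-T genes encode non-classical ones: H2-Q7 and H2-Q6 give the Qa-2 antigen, H2-T23 gives Qa-1, the ligand of the CD94 and NKG2A receptor, and H2-T22 encodes a ligand of some gamma-delta T cells. All lymphocytes carry class I, and interferons, NF-kappaB and the transactivator Nlrc5 raise transcription of its genes.

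The promoters of 6 members are shown because H2-Q2, whose levels below follow another pattern than those of B2m, H2-K1, H2-D1, H2-Q7 and H2-T23, also differs from them in this window. Each run is the 250 bases before the RefSeq start of the gene, 5′ to 3′ on its own strand (RefSeq, GRCm38.p6). Capitals mark matches, on either strand, to the kappaB consensus, to an interferon-stimulated response element (GAAANNGAA) and to its class I form (AAGTGAAAC); these motifs were chosen after the promoters had been seen.
B2m, chr2:122147437-122147686, plus strand: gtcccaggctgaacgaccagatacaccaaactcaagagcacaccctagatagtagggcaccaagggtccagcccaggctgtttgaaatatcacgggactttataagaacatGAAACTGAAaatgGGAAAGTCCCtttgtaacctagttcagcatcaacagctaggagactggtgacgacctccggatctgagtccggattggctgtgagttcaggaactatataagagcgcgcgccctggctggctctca
H2-K1, chr17:34000348-34000597, minus strand: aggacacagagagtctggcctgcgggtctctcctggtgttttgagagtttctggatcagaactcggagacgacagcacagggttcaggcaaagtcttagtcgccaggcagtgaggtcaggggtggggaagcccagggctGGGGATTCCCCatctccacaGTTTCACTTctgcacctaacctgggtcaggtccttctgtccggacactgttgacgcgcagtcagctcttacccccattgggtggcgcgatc
H2-D1, chr17:35262844-35263093, plus strand: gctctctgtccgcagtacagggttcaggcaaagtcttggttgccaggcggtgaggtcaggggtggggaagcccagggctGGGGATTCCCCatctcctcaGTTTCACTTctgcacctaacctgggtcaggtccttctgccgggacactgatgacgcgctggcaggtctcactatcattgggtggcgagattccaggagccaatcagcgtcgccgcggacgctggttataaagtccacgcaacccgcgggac
H2-Q7, chr17:35438905-35439154, plus strand: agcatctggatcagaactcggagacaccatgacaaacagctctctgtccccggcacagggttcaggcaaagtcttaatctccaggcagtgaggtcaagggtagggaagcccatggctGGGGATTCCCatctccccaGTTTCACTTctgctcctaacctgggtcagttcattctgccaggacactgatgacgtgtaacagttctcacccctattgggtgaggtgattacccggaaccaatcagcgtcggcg
H2-T23, chr17:36032702-36032951, minus strand: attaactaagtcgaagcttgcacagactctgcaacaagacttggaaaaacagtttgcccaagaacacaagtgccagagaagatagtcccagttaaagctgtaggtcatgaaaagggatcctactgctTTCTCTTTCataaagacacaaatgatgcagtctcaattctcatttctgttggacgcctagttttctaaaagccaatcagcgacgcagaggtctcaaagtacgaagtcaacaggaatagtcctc
H2-Q2, chr17:35342057-35342306, plus strand: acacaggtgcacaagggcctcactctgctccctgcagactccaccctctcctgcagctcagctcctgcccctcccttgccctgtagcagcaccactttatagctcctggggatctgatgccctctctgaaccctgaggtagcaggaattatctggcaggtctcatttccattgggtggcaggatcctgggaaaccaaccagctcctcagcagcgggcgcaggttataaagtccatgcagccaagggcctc
All 9 members had a promoter in the RefSeq table, H2-K1 with 2 listed starts, of which the first was taken. A kappaB match and a class I response element match stood together in 6 of the 9, H2-K1, H2-D1, H2-Q4, H2-Q6, H2-Q7 and H2-T22, and in 17 of all 27025 mouse promoters (0.0629%), H2-M3 and Cxcl10 among them. Alone, the kappaB consensus was in 7.01% of promoters, GAAANNGAA in 7.16% and AAGTGAAAC in 0.352%. B2m had GAAANNGAA and, on the minus strand, a kappaB match. H2-T22 had both forms of the response element, overlapping one another, and H2-T23 had GAAANNGAA alone. H2-Q2 had none of these matches in its window; it had CCAAT, which all 9 members held and which 34.5% of promoters hold. H2-Q4, whose levels over the subclusters correlated with those of H2-Q2 at 0.60, held both the kappaB and the class I response element match. The matches thus do not sort the members by the pattern of their levels. A match is a run of letters and not a shown binding site, and a part of these promoters in the levels was not tested.

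B2m lies at chr2:122147686-122153083 (GRCm38, GENCODE vM21, plus strand). The 8 heavy-chain genes lie in the H2 region of chromosome 17, from H2-K1 at chr17:33996017-34000347 (minus strand) to H2-T22 at chr17:36037128-36042747 (minus strand). H2-D1 is at chr17:35262730-35267499, H2-Q2 at chr17:35342242-35346762, H2-Q4 at chr17:35379617-35385290, H2-Q6 at chr17:35424850-35430055 and H2-Q7 at chr17:35439155-35443773, all on the plus strand, and H2-T23 is at chr17:36029773-36032855 on the minus strand. All 9 are protein-coding and compact, with 194 (H2-T23) to 4538 (B2m) bases of intron. Near-identical copies can share reads. Of the 60-base windows in the last 500 bases of each gene's transcripts, 0% occurred in another gene for B2m, 4.69% for H2-K1, 3.56% for H2-D1, 8.96% for H2-Q2, 9.86% for H2-Q7, 24.7% for H2-Q4, 30.2% for H2-T23, 38.0% for H2-Q6 (H2-Q7 first) and 51.2% for H2-T22 (H2-T10). Values of H2-Q6 and H2-T22 are therefore the least certain, and the H2-Q genes are also given as a sum.

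In each class the summed members took up more of the BKO transcriptome than of WT. They made up 8153 CPM (0.815% of UMIs) in BKO Tfr cells, against 6109 and 6211 CPM in WT runs 1 and 2, and 7098 CPM (0.710%) in BKO Tfh cells, against 5904 and 6022 CPM. The log2 ratio of BKO to the mean of the WT runs was 0.40 in Tfr cells and 0.25 in Tfh cells, and the WT runs differed from one another by 0.024 and 0.029 on the same scale. A gene was called when it averaged at least 20 CPM over the samples and its BKO value lay at least 1.5-fold beyond both WT runs. By that size rule the member called higher was H2-Q7 in Tfr cells, 1 of the 8 members that reached the minimum, and H2-Q2 in Tfh cells, 1 of 9; no member was called lower in either class. Of all genes measured, 0.887% of 6539 were called higher in Tfr cells and 0.396% of 6559 in Tfh cells (2.4% and 2.45% lower). The other members shared the sign but not the size: all 8 ratios in Tfr cells (median 0.40) and all 9 in Tfh cells (median 0.33) were above 0, while the median of all genes was -0.092 in Tfr cells and -0.097 in Tfh cells. In relative values, fewer transcripts of other genes and more of these cannot be told apart.

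**Figure D1:**
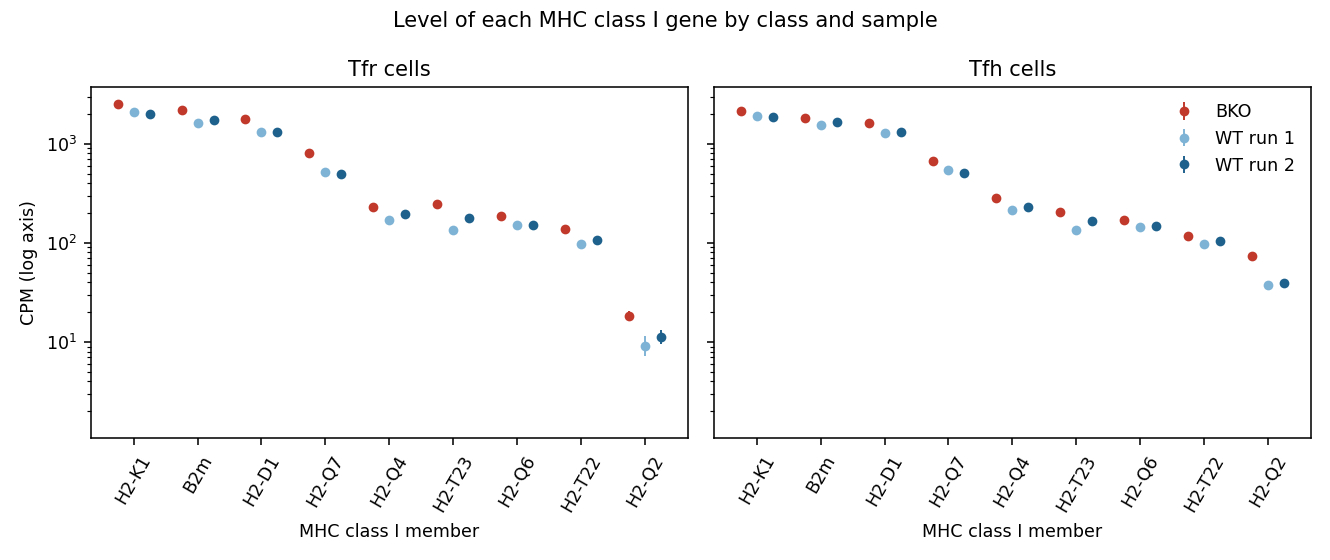
Level of each member in CPM on a log axis, in Tfr cells and Tfh cells, for BKO, WT run 1 and WT run 2; bars are exact Poisson 95% intervals and mostly lie within the points. BKO stands above both WT runs for every member, and H2-Q2 is the member with the widest distance between the classes.

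Gene length bears on these ratios. Genes with under 5000 bases of intron, the size of every member, had a median log2 ratio of 0.18 in Tfr cells (1103 genes, 2.36% called higher) and 0.16 in Tfh cells (1134 genes, 1.85%), against -0.37 and -0.36 for genes with over 100000 bases. Per the file headers, Cell Ranger 4 made the BKO counts and cellranger 7.0.1 the WT counts; these versions differ in whether they count intron reads by default, and the sources used here do not give the setting. With the trend over intron length taken off, the ratio of the summed members was 0.23 in Tfr cells and 0.090 in Tfh cells. Each member's ratio stayed above 0 except that of H2-K1 in Tfh cells, at -0.013; H2-Q2 in Tfh cells was still called, at 0.76, and H2-Q7 in Tfr cells, at 0.49, was not. Library, Cell Ranger version and genotype go together here and cannot be told apart. BKO and WT run 1 carry the same batch label, and between them the ratio of the summed members was 0.42 in Tfr cells and 0.27 in Tfh cells.

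**Figure D2:**
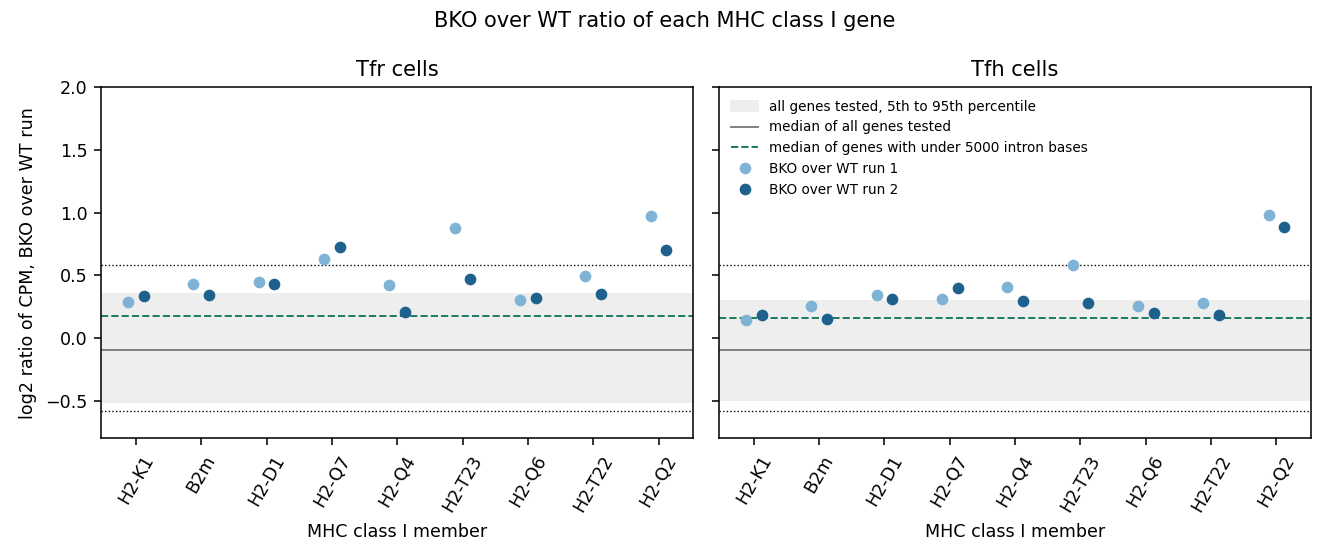
Log2 ratio of CPM in BKO to WT run 1 and to WT run 2 for each member, in Tfr cells and Tfh cells; the band holds the 5th to 95th percentiles of all genes tested, the solid line is their median, the dashed line the median of genes with under 5000 bases of intron, and the dotted lines mark 1.5-fold in either direction. H2-Q7 in Tfr cells and H2-Q2 in Tfh cells lie beyond the upper dotted line against both runs; H2-Q2 in Tfr cells does too but is below the minimum of 20 CPM.

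The light chain and the classical heavy chains carried most of the UMIs and had small ratios. B2m had 2203 CPM in BKO Tfr cells, against 1633 and 1737 CPM in WT runs 1 and 2, and 1835 CPM in BKO Tfh cells, against 1532 and 1648 CPM. Its log2 ratios were 0.39 in Tfr cells and 0.21 in Tfh cells, with BKO above both runs each time. H2-K1 had 2541 CPM in BKO Tfr cells, against 2084 and 2017 CPM in the WT runs, and 2123 CPM in BKO Tfh cells, against 1925 and 1872 CPM. Its ratios, 0.31 and 0.16, were the lowest of the members that reached the minimum, and the distance between BKO and WT exceeded that between the runs. H2-D1 had 1779 CPM in BKO Tfr cells, against 1304 and 1322 CPM in the WT runs, and 1622 CPM in BKO Tfh cells, against 1280 and 1306 CPM, with ratios of 0.44 and 0.33. None of the 3 reached 1.5-fold.

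UMIs of a 3′ kit count molecules, so the balance between chains can be read without dividing by length, though unequal mapping enters it. There were 0.370 UMIs of B2m for each heavy-chain UMI in BKO Tfr cells, against 0.365 and 0.388 in WT runs 1 and 2. The ratio was 0.349 in BKO Tfh cells, against 0.351 and 0.377. BKO thus lay within or just outside the span of the WT runs, and light and heavy chains did not separate by genotype. H2-K1 and H2-D1 together gave 72.6% of heavy-chain UMIs in BKO Tfr cells, against 75.7% and 74.6% in WT, and 71.2% in BKO Tfh cells, against 73.3% and 72.6%. Within the classical pair, H2-D1 UMIs per H2-K1 UMI were 0.700 in BKO Tfr cells, against 0.626 and 0.656 in WT, and 0.764 in BKO Tfh cells, against 0.665 and 0.698, so that BKO was above both runs in each class.

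Among the non-classical genes that reached the minimum, H2-Q7 had the highest ratio in Tfr cells. It had 812 CPM (95% interval 798 to 826) in BKO Tfr cells, against 525 CPM (510 to 541) and 491 CPM (480 to 503) in WT runs 1 and 2. That is 1.60-fold, a log2 ratio of 0.68, larger than the ratios of 99.3% of the genes measured. With the intron trend taken off, the ratio of 0.49 was larger than those of 97.8% of genes and was not called. In Tfh cells it had 669 CPM in BKO, against 539 and 506 CPM in WT, a ratio of 0.36 that was not called. With subclusters weighted by their WT cell shares in both genotypes, the Tfr ratio was 0.59 and the call was lost.

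H2-Q2 was the least abundant member and had the highest ratios. It had 74.1 CPM (71.6 to 76.7) in BKO Tfh cells, against 37.4 CPM (34.7 to 40.2) and 39.8 CPM (37.6 to 42.1) in WT runs 1 and 2, which is 1.91-fold and a log2 ratio of 0.93. Of the 6559 genes measured in Tfh cells, 99.9% had a lower ratio, and 99.7% of genes did with the intron trend taken off. In Tfr cells it had 18.5 CPM (16.4 to 20.7) in BKO, against 9.15 CPM (7.21 to 11.4) and 11.1 CPM (9.44 to 13.1) in WT, a ratio of 0.83 from 282, 76 and 151 UMIs, but its mean was below the minimum, so the rule was not applied. H2-Q1, a neighbour whose end shares sequence with H2-Q2, had 0 to 2 UMIs in each sample and class.

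The remaining H2-Q and H2-T genes had ratios above 0 without a call. H2-Q4 had 228 CPM in BKO Tfr cells, against 170 and 197 CPM in WT runs 1 and 2, and 282 CPM in BKO Tfh cells, against 213 and 229 CPM. H2-Q6 had 187 CPM in BKO Tfr cells, against 152 and 150 CPM, and 171 CPM in BKO Tfh cells, against 143 and 149 CPM. These values gave log2 ratios of 0.31 for each gene in Tfr cells, and of 0.35 for H2-Q4 and 0.23 for H2-Q6 in Tfh cells. Summed over the 4 H2-Q genes, BKO Tfr cells had 1245 CPM, against 856 and 850 CPM in WT, and BKO Tfh cells had 1196 CPM, against 933 and 924 CPM. The sum covers reads placed on another copy among the 4. It does not cover reads left uncounted or shared with genes outside it, such as H2-Q5 for H2-Q7 and H2-Q1 for H2-Q2. The ratios of the sum, 0.55 and 0.37, were under 1.5-fold in both classes.

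H2-T23 had 247 CPM in BKO Tfr cells, against 134 and 177 CPM in WT runs 1 and 2, and 204 CPM in BKO Tfh cells, against 136 and 168 CPM. Its ratios to the mean were 0.66 and 0.43, but the 2 WT runs of the same cells differed by 0.40 and 0.30, more than for any other member that reached the minimum, and the distance of BKO from run 2 was 0.47 and 0.28. With WT run 2 left out it was called in both classes. H2-T22 had 138 CPM in BKO Tfr cells, against 97.7 and 108 CPM, and 118 CPM in BKO Tfh cells, against 97.3 and 104 CPM, with ratios of 0.42 and 0.23.

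Between the classes, H2-Q2 was the member that differed. It was lower in Tfr than in Tfh cells of each sample, by a log2 ratio of -1.98 in BKO, -1.97 in WT run 1 and -1.79 in WT run 2, and it was the only one of the 9 members beyond 1.5-fold in all 3. Of 6552 genes measured, 4.21% passed that rule (2.35% higher in Tfr cells, 1.86% lower), and 0.305%, 0.320% and 0.427% of genes had a lower ratio than H2-Q2 in BKO, WT run 1 and WT run 2. H2-Q4 had the same sign at -0.31, -0.33 and -0.22, without a call. B2m and H2-K1 lay above 0 in each sample, H2-K1 at 0.26 in BKO, 0.11 in WT run 1 and 0.11 in WT run 2. The ratio of the summed members was 0.20 in BKO and 0.049 and 0.045 in the WT runs, beside medians of all genes of -0.0003, 0.0020 and -0.0017. The classes of 1 library share its batch and its software, so intron counting is alike on both sides of this ratio. The classes stood further apart in BKO: 5 Tfr markers had a median log2 ratio of Tfr to Tfh cells of 2.88 in BKO, against 1.26 and 1.31 in WT runs 1 and 2. Subcluster makeup, given below, also differed by genotype. The part of either in the class ratios of the members was not tested.

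Per cell, class I transcripts were found in nearly every cell. Cells were thinned to 2500 UMIs each, which left out 9, 36 and 2 Tfr cells and 66, 194 and 56 Tfh cells of BKO, WT run 1 and WT run 2. The median cell then held 20 summed member UMIs in BKO Tfr cells, against 15 and 16 in WT, and 18 in BKO Tfh cells, against 14 and 15. The lowest 5% of cells had at most 9 in BKO Tfr cells, against 7 in each WT run, and at most 8 in BKO Tfh cells, against 6. The whole distribution sat higher in BKO rather than a tail of it.

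**Figure D3:**
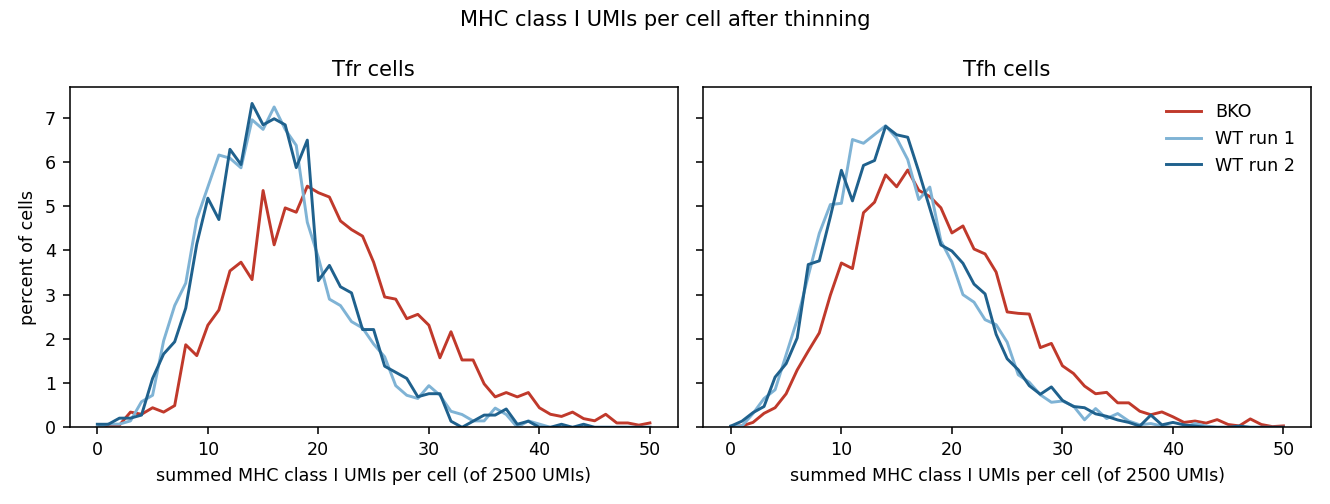
Percent of cells by the summed MHC class I UMIs they hold after each cell was thinned to 2500 UMIs, in Tfr cells and Tfh cells; lines are BKO, WT run 1 and WT run 2. The WT runs lie on one another, and the BKO curve has its median at 20 UMIs in Tfr cells, against 15 and 16, and at 18 UMIs in Tfh cells, against 14 and 15.

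H2-Q7 and H2-Q2 differed in how many cells held them. After thinning, H2-Q7 was found in 82.2% of BKO Tfr cells, against 69.1% in each WT run, and in 76.4% of BKO Tfh cells, against 67.7% and 64.9%. H2-Q2 was found in 16.2% of BKO Tfh cells (exact Clopper-Pearson 95% interval 15.3 to 17.2), against 8.32% (7.43 to 9.28) and 9.19% (8.27 to 10.2) in WT. In Tfr cells the shares were 4.18% (3.35 to 5.14) in BKO, against 2.32% (1.59 to 3.26) and 2.97% (2.16 to 3.98), so that the intervals of BKO and WT run 2 overlapped. Without thinning, H2-Q2 was in 30.1% of BKO Tfh cells, against 13.4% and 19.96%, and in 10.6% of BKO Tfr cells, against 4.38% and 8.07%, where depth also differs.

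No cell type in these samples lacks class I, so free RNA has no blank to be read from. In the unfiltered BKO matrix, 907649 barcodes of 1 to 50 UMIs held the members at 7667 CPM (7535 to 7800), beside 7371 CPM in annotated BKO cells. H2-Q2 was at 42.7 CPM (33.4 to 53.8) in them and at 59.7 CPM in cells, and H2-Q7 at 802 and 706 CPM. The WT matrices have no such barcodes. The part of free RNA in the shares of cells with a UMI was not tested. B cells carry much class I, and 5 B cell markers summed to 11.9 CPM in BKO Tfr cells, against 9.27 and 9.67 CPM in WT, and to 10.8 CPM in BKO Tfh cells, against 8.43 and 8.32 CPM. Of other cell types, 4 erythroid markers summed to 4.06 CPM in BKO Tfr cells, against 0.842 and 0.886 CPM in WT, and to 6.89 CPM in BKO Tfh cells, against 1.39 and 1.54 CPM. Myeloid markers, 5 in all, summed to 139 CPM in BKO Tfr cells, against 99.3 and 93.6 CPM, and to 104 CPM in BKO Tfh cells, against 88.7 and 81.3 CPM. These 3 sums were higher in BKO, though of the 5 myeloid markers only 1 reached 20 CPM. The sum of 6 CD8 T and natural killer cell markers went the other way. It was 59.1 CPM in BKO Tfr cells, against 118 and 90.4 CPM in WT, and 58.8 CPM in BKO Tfh cells, against 336 and 317 CPM. That list holds Nkg7 and Eomes, which lead Tfh subclusters described below. The part of any of these sums in the class I values was not tested.

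The authors' subclusters show where in each class the members were high. In all 10 subclusters with at least 100 cells in each sample the summed members had a BKO ratio above 0, between 0.18 in Tfh subcluster 4 and 0.44 in Tfr subcluster 1, with a median of 0.31. Tfr subcluster 1, led by Neb, Prdm1 and S100a4, had 9607 CPM in BKO, against 7048 and 7112 CPM in WT, the highest of these subclusters in each sample. Tfh subcluster 3, led by Sostdc1 and Hs6st3 among others, had 6625 CPM in BKO, against 5361 and 5400 CPM, the lowest in each sample. Subcluster makeup differed by genotype, with Tfh subcluster 2 at 34.1% of BKO Tfh cells, against 6.90% and 7.33% of WT, and Tfr subcluster 1 at 36.3% of BKO Tfr cells, against 16.2% and 17.1%. With subclusters given the WT shares in both genotypes, the summed ratio was 0.31 in Tfr cells and 0.27 in Tfh cells.

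**Figure D4:**
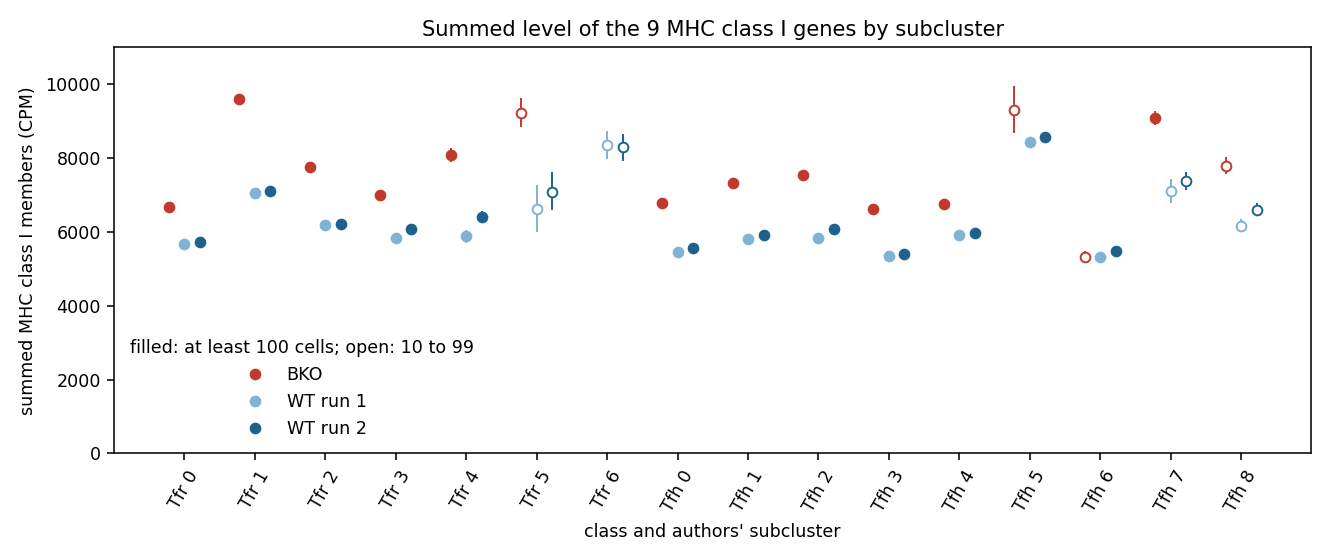
Summed CPM of the 9 members in each subcluster of Tfr and Tfh cells for BKO, WT run 1 and WT run 2, with exact Poisson 95% intervals; open points have 10 to 99 cells. BKO is above both WT runs in all 10 subclusters with at least 100 cells in each sample, and Tfr subcluster 1, Tfh subcluster 5 and Tfh subcluster 7 are high.

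Smaller or uneven subclusters held the other high and low values. Tfh subcluster 5, led by Ccl5 and Nkg7, had 8441 and 8570 CPM in WT runs 1 and 2 (359 and 363 cells), the highest among WT subclusters of at least 100 cells, and 9300 CPM in its 11 BKO cells. Tfr subcluster 6, also led by Ccl5, had 8352 and 8290 CPM in its 27 and 20 WT cells and no BKO cell. Tfh subcluster 6, led by Xcl1, Eomes and Sox4, had 5331 CPM in 91 BKO cells, against 5315 and 5488 CPM in 181 and 177 WT cells, and was the one subcluster with cells of both genotypes whose ratio, -0.019, was not above 0. Without Tfh subclusters 5 and 6 and Tfr subcluster 6, the summed ratio was 0.42 in Tfr cells and 0.32 in Tfh cells. Nkg7, a cytotoxic granule gene that marks the same cells, was called lower in both classes, with 26.6 CPM in BKO Tfr cells, against 78.7 and 53.8 CPM, and 27.5 CPM in BKO Tfh cells, against 249 and 230 CPM.

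The interferon-led subclusters, Tfh subcluster 7 and Tfr subcluster 5, are led by Ifit1, Ifit3 and Rsad2. Tfh subcluster 7 had 9086 CPM of the members in 134 BKO cells, against 7103 and 7375 CPM in 56 and 57 WT cells. Tfr subcluster 5 had 9233 CPM in 32 BKO cells, against 6615 and 7091 CPM in 11 and 12 WT cells. H2-T22 had 249 CPM in BKO cells of Tfh subcluster 7, against 163 and 189 CPM in WT, and H2-T23 had 381 CPM, against 248 and 333 CPM. In all Tfh cells H2-T22 had 118 CPM in BKO, against 97.3 and 104 CPM, and both genes stood higher in the interferon-led cells of each sample. These cells are few, and without them the summed ratio was 0.40 in Tfr cells and 0.25 in Tfh cells.

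Single members were called in 5 of the 10 larger subclusters. Of 84 member and subcluster pairs that reached the minimum, 7 were called higher and 0 lower, while of all genes 0.603%, 1.01%, 1.3%, 0.638% and 2.87% were called higher in Tfr subclusters 0 to 4 and 0.5%, 0.725%, 0.434%, 0.23% and 0.586% in Tfh subclusters 0 to 4. In the whole classes, genes with under 5000 bases of intron were called higher more often than all genes. Their shares were 2.36% in Tfr cells and 1.85% in Tfh cells, beside 0.887% and 0.396%. Within subclusters that share was not taken. The pairs come from the same 9 genes and the same libraries. H2-Q2 in Tfr subcluster 0, among the 7, reached the minimum only through its BKO value. H2-Q7 was called in Tfr subcluster 1 (976 CPM in BKO, against 589 and 547 CPM; 1.01% of genes called higher) and in Tfr subcluster 4 (845 CPM, against 563 and 547 CPM; 2.87%). H2-T22 was called in Tfr subcluster 1, at 164 CPM in BKO, against 101 and 108 CPM. H2-Q4 was called in Tfh subcluster 2, at 290 CPM in BKO, against 169 and 192 CPM, where 0.434% of genes were called higher. In the 10 subclusters B2m, H2-K1 and H2-D1 were called in none, with ratios of 0.18 to 0.47, 0.051 to 0.36 and 0.24 to 0.44.

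H2-Q2 had a map of its own over the subclusters. Among the 10 larger ones it was highest in Tfh subcluster 0 (124 CPM in BKO, against 77.3 and 85.2 CPM in WT), next in Tfh subcluster 2 (94.5 CPM, against 54.5 and 55.3 CPM) and in Tfh subcluster 3 (62.1 CPM, against 38.3 and 33.4 CPM). Tfh subclusters 1 and 4 were low, with 28.1 CPM in BKO, against 13.2 and 13.6 CPM, and 26.6 CPM in BKO, against 12.3 and 13.9 CPM. It was called higher in BKO in Tfh subclusters 2 and 3 (0.434% and 0.23% of genes) and in Tfr subcluster 0 (0.603%), where it had 40.8 CPM (33.1 to 49.8) in BKO, against 12.4 CPM (8.88 to 16.8) and 15.6 CPM (12.5 to 19.3) in WT. In Tfr subcluster 0 both WT values lay under 20 CPM, so H2-Q2 reached the minimum there only through BKO. That call is a description only. In Tfr subcluster 1, where B2m, H2-K1, H2-D1 and H2-T23 were highest in each sample, it had 8.65 CPM in BKO, against 8.84 and 8.54 CPM, and did not separate the genotypes. Of the smaller subclusters, Tfh subcluster 7 had 64.8 CPM in BKO, against 31.9 and 47.9 CPM, and Tfh subcluster 8 went the other way, with 20.4 CPM in 46 BKO cells, against 35.1 and 43.2 CPM in 64 and 53 WT cells. Of the 10 ratios in the larger subclusters, 9 were above 0, but 6 of the 10 subclusters lay under the minimum of 20 CPM. H2-Q2 is among the genes that lead Tfh subcluster 0 in WT run 2 and Tfh subcluster 2 in BKO. Its height there may have helped to draw these subclusters and is a description only.

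**Figure D5:**
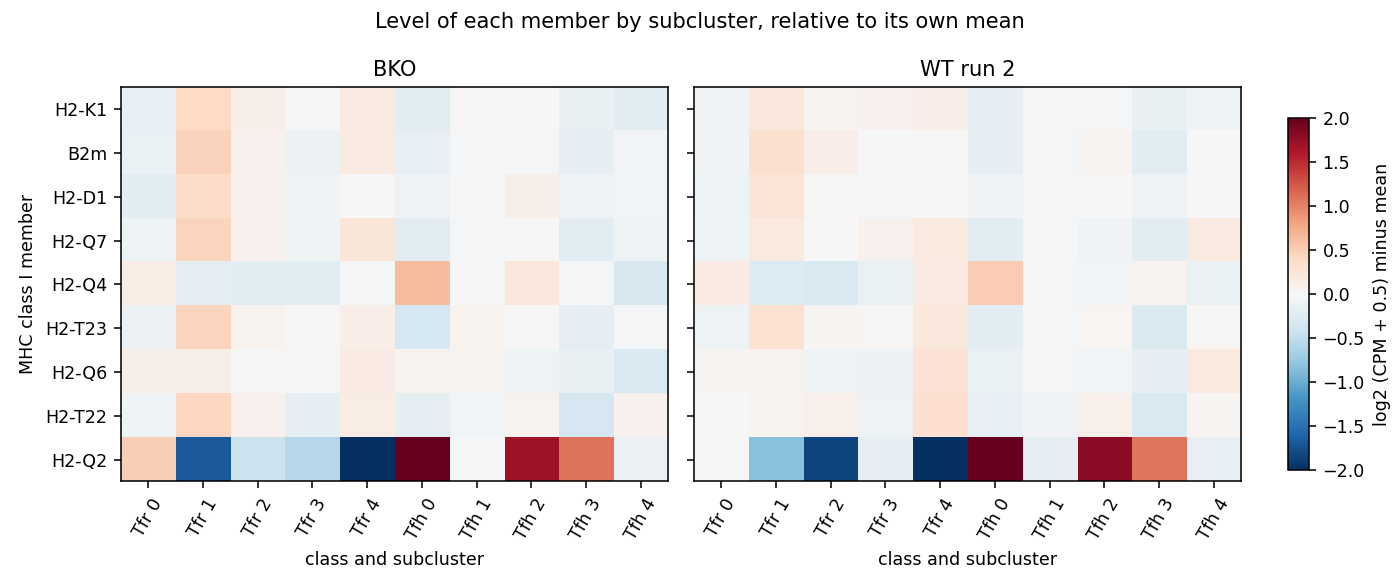
Level of each member in the 10 subclusters with at least 100 cells in each sample, as log2 (CPM + 0.5) minus the member's mean over those subclusters, in BKO (left) and WT run 2 (right). H2-K1, B2m, H2-D1 and H2-T23 are highest together in Tfr subcluster 1, with H2-Q7 high there too (in WT run 2 at the level of Tfr subcluster 4), where H2-Q2 and H2-Q4 are below their means, and H2-Q2 is highest in Tfh subclusters 0 and 2.

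Across these 10 subclusters in BKO and in WT run 2, 20 points centred on each library, the members fell into 2 patterns. B2m, H2-K1, H2-D1, H2-Q7, H2-T22 and H2-T23 had pairwise Pearson correlations of 0.70 to 0.91. H2-Q2 and H2-Q4 correlated at 0.60 with one another, and H2-Q2 at -0.42 to -0.74 with those 6. H2-Q6 lay between, at 0.14 with H2-Q4 and 0.58 with H2-Q7, the gene with which it can share reads. The points share 2 libraries and the cells of each class, so the values are descriptive. Among 6543 other genes of at least 20 CPM, those nearest to the summed members were Cyba (0.90), Crlf2 (0.88), Leprotl1 (0.87), Cmtm7 (0.87) and Ebp (0.87).

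The machinery that fills class I was followed by lists chosen with earlier results of these data known. Of 8 peptide-loading genes (transporters and chaperones), all 8 were measured and 0 were called in either class; their median log2 ratio was 0.12 in Tfr cells and 0.081 in Tfh cells. With 0.887% and 0.396% of all genes called higher, a count of 0 in lists of this size is near the background. Calr, a chaperone of the heavy chain, had 324 CPM in BKO Tfr cells, against 278 and 267 CPM in WT runs 1 and 2. Of 5 genes of the immunoproteasome, which cuts the peptides, and of its activator, 0 were called, with medians of 0.37 and 0.16. Genes with under 5000 bases of intron had medians of 0.18 in Tfr cells and 0.16 in Tfh cells. The intron trend was not taken off for either list. Psme2, a subunit of the proteasome activator, had 461 CPM in BKO Tfr cells, against 340 and 332 CPM (0.46), and Psmb8, a catalytic subunit, had 611 CPM in BKO Tfh cells, against 580 and 538 CPM (0.13). Over the subclusters of at least 100 cells the summed members and the sum of both lists had Pearson correlations of 0.89 in BKO (11 subclusters), 0.80 in WT run 1 and 0.77 in WT run 2 (12 each). The BKO set holds the interferon-led Tfh subcluster 7, and the WT sets hold Tfh subclusters 5 and 6 instead. These values are therefore not compared between genotypes.

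Of 15 listed transcription factors of class I genes, 12 were measured and 0 were called. They had medians of 0.009 in Tfr cells and -0.090 in Tfh cells, beside -0.092 and -0.097 for all genes, with 7 of the 12 ratios above 0 in Tfr cells and 3 of 12 in Tfh cells. Nlrc5, the class I transactivator, had 168 CPM in BKO Tfr cells, against 197 and 203 CPM in WT runs 1 and 2. In BKO Tfh cells it had 159 CPM, against 196 and 209 CPM. Its ratios, -0.25 and -0.35, were below 0 where those of the members were above. The intron trend was not taken off for this list. Genes with 5000 to 100000 bases of intron had a median of -0.11 in each class, against 0.18 and 0.16 for genes under 5000, the size of the members. The part of intron length in these signs was not tested. Nfkb1, the p50 subunit of NF-kappaB, had 306 CPM in BKO Tfr cells, against 418 and 417 CPM. Irf1, an interferon-induced activator of class I genes named after its values were seen, had 130 CPM in BKO Tfr cells, against 89.9 and 87.6 CPM (0.55, the highest ratio of the list there), and 85.1 CPM in BKO Tfh cells, against 85.9 and 80.4 CPM.

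Of 16 listed interferon-induced genes, 3 of 12 measured were called higher in Tfr cells (Ly6a, Iigp1 and Igtp; median 0.41), where 0.887% of all genes were, and 1 of 9 in Tfh cells (Ly6a; median 0.32), where 0.396% were. The intron trend was not taken off for this list either. Genes with under 5000 bases of intron had medians of 0.18 in Tfr cells (2.36% called higher) and 0.16 in Tfh cells (1.85%). The list summed to 853 CPM in BKO Tfr cells, against 509 and 541 CPM in WT, and to 811 CPM in BKO Tfh cells, against 544 and 533 CPM. Much of that distance came from 1 gene: Ly6a, a surface protein of activated T cells, had 231 CPM in BKO Tfr cells, against 84.6 and 80.6 CPM, and 360 CPM in BKO Tfh cells, against 167 and 159 CPM. Isg15, an interferon-induced ubiquitin-like protein, had 117 CPM in BKO Tfr cells, against 78.8 and 81.3 CPM. Over subclusters of at least 100 cells the members and this list had Spearman correlations of 0.25 in BKO, 0.32 in WT run 1 and 0.20 in WT run 2. The Pearson values were 0.58, 0.19 and 0.18, but the BKO set holds the interferon-led Tfh subcluster 7 and the WT sets do not, so they are not compared.

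Other genes of the H2 region and of antigen presentation stand beside the members. Of the non-member genes between H2-K1 and H2-T22 on chromosome 17, 0 of 37 measured in Tfr cells were called, with a median of 0.14, and 0 of 41 in Tfh cells, with a median of 0.13; since 0.887% and 0.396% of all genes were called higher, these counts are near the background and set nothing apart. Of 11 other class I and class I-like genes in the tables, H2-M3, which binds formylated peptides, was the only 1 that reached the minimum. It had 62.8 CPM in BKO Tfr cells, against 43.8 and 46.7 CPM in WT (0.47). In BKO Tfh cells it had 61.05 CPM, against 50.8 and 48.0 CPM (0.30). These ratios were near the members' medians of 0.40 and 0.33. Genes below the minimum did not all share that sign. H2-T24 had ratios of -0.12 in Tfr cells and -0.32 in Tfh cells, and Mr1 of -0.077 and -0.020. H2-Q10, at 2.16 CPM in BKO Tfr cells, had -0.81 and -0.79, while Cd1d1 had 0.068 and 0.16. Cd74, the class II invariant chain, had 128 CPM in BKO Tfr cells, against 116 and 116 CPM, and 25.8 CPM in BKO Tfh cells, against 36.3 and 35.2 CPM. Among receptors of class I, Cd160 alone was measured of 11, at 25.3 CPM in BKO Tfr cells, against 27.0 and 25.1 CPM, and 47.1 CPM in BKO Tfh cells, against 49.9 and 47.1 CPM.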

How the data were processed

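UMI counts per gene and cell were deposited by the authors as 10x matrices. The submitters' processing notes name Cell Ranger and the build mm10; per the file headers the versions were cellranger 7.0.1 (WT) and Cell Ranger 4 (BKO). Classes and subclusters were taken from the authors' deposited cell tables, which also hold the authors' UMI counts and percent of mitochondrial UMIs per cell; the annotated cells had at most 10% mitochondrial UMIs. The sources used here do not give a doublet step, and none was added.

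From the counts, UMIs were summed by sample, class and subcluster with Python 3.11.15 (numpy 2.4.6, scipy 1.17.1, pandas 2.3.3) and divided by the total to give CPM. Barcode suffixes were assigned to WT run 1 by barcode membership and equal UMI totals, and to WT run 2 by membership alone. All 5117 barcodes of the latter were in run 2, and 5077 were in run 1. The authors' UMI totals for these cells equalled those of the deposited matrix in 0 cells of either run. The WT runs hold the same cells (median profile correlation 0.893 for the same barcode, 0.579 for another, 200 barcodes), so a size rule replaced a test: mean of at least 20 CPM and 1.5-fold beyond both runs. Log2 ratios add 0.5 CPM to each side. Intervals are exact Poisson for sums and exact Clopper-Pearson for shares, at 95%. TMM factors came from edgeR 4.0.16 and size factors from DESeq2 1.42.0 in R 4.3.3. Gene models were GENCODE vM21 (GRCm38), with 32158 of 32285 genes matched. The rule was tested on simulated data.

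The text names all 9 members, the listed genes past the rule or of highest CPM, the 5 genes nearest to the summed members and leading genes of subclusters; from these, examples are given. Some listed genes are not reported here. The members and lists were chosen with earlier results of these data known. Alternatives were other scalings, minimums, folds, pseudocounts, cell sets, thinning and an intron length correction. Depth per matrix was 85225125 UMIs in BKO and 32518538 and 54059000 in WT runs 1 and 2.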

Additional observations from a re-analysis of the deposited data

Results flagged for a closer look

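H2-Q7 had a log2 ratio of Tfr to Tfh cells of 0.28 (0.2788) in BKO, while both WT runs lay on the other side of 0, at -0.039 and -0.044. It had 812 CPM in BKO Tfr cells and 669 CPM in BKO Tfh cells. In WT it had 525 and 491 CPM in Tfr cells and 539 and 506 CPM in Tfh cells. The sum of the H2-Q genes showed the same at a smaller size, with 0.059 (0.0586) in BKO and -0.12 in each WT run. With each cell thinned to 2500 UMIs, H2-Q7 was at 0.27 in BKO, -0.037 in WT run 1 and 0.022 in WT run 2, so that run 2 was no longer below 0. The difference between the genotypes was not tested, since each has 1 library, and the WT values are small. By their Tfr markers the classes also stood further apart in BKO than in WT, and subcluster makeup differed. The part of either in these ratios was not tested.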

How the results depend on the processing

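The summed members had a BKO ratio above 0 under all 15 alternatives run, at 0.23 to 0.52 in Tfr cells and 0.090 to 0.41 in Tfh cells, and H2-K1 in Tfh cells with the intron trend taken off (-0.013) was the only member ratio below 0. TMM scaling moved the median of all genes from -0.092 to 0.023 in Tfr cells and from -0.097 to 0.062 in Tfh cells. Members called higher in Tfr cells (1) were 2 with no minimum, 5 with a fold 25% above 1 in place of 1.5, 0 with subclusters given the WT cell shares, 0 with the intron trend taken off and 0 with the H2-Q genes summed, which also gave 0 in Tfh cells (1). Leaving out a WT run gave 1 to 2 members in each class, the second being H2-T23 without run 2; all genes called higher were 76 to 95 in Tfr cells and 33 to 56 in Tfh cells, and lower ones 190 to 201 and 165 to 180. Of all genes, 58 were called higher and 157 lower in Tfr cells and 26 and 161 in Tfh cells. These were 104 and 74, and 63 and 83, with TMM; 102 and 75, and 58 and 86, with DESeq2 size factors; 2172 and 2414, and 2207 and 2950, with no minimum; 33 and 90, and 13 and 75, at 50 CPM; and 310 and 1110, and 145 and 1045, with the fold 25% above 1. Weighted subclusters gave 24 higher and 47 lower in Tfr cells and 48 lower in Tfh cells, the intron trend 46 and 80 lower, and the total without variable gene classes 44 higher in Tfh cells. The highest over the lowest subcluster in BKO was 1.45, and 1.80 with a minimum of 50 cells. The causes were not tested. No paired analysis was possible because the groups share 1 replicate number only, both WT samples hold the same cells and no test was made. With 1 library per genotype, no spread between mice is known, and H2-Q2 in Tfr cells is limited by its counts.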
